A study of Mus musculus with 3 samples.

Results

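Among innate lymphocytes of the gut epithelium, iCD8a cells were set against group 1 innate lymphoid cells (ILC1), gene by gene. The comparison takes the 1 library that carries the cell type label iCD8a and the 1 library labelled ILC1, 2 of the 3 libraries of the series, and covers all genes. Of 37224 gene IDs, 20564 had a count in either library, 17271 had one in both, and 10110 reached 5 CPM in at least 1 of them. These 10110 are called measured genes here. CPM is a gene's share of the counts of its library, scaled to a fixed total, after TMM normalization, a correction for differences in library composition.

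Both libraries came from mice of the genotype RAG-2 null, which cannot rearrange antigen receptor genes and so lack conventional T and B cells. The iCD8a cells were sorted from the intestinal epithelium as positive for CD45, the pan-leukocyte marker, and for the alpha chain of CD8. ILC1 were sorted as positive for NKp46 and NK1.1, a pair of receptors of natural killer cells and related innate lymphocytes. The third library, CD11b+, held myeloid cells that were CD45-positive and CD8α-negative. No further gate is named for either sort. The sources used here do not give strain, age or whether a library holds 1 mouse or a pool. The sample titles share 1 date.

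Each group had 1 library, so no difference has a replicate check and none was tested. The range that follows a fold is a 95% exact interval from the read counts. It covers counting error only, not the spread between animals, and without molecular identifiers reads are not independent molecules. In bulk libraries such as these, fewer cells of a type and less RNA per cell cannot be told apart. Gene counts came to 21678113 in iCD8a and 22181660 in ILC1. Alignments that were not unique took 26.9% and 34.5% of all reads listed, and of gene counts 1.60% and 2.09% fell on mitochondrially encoded genes.

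Group 1 innate lymphoid cells are innate counterparts of T helper 1 and cytotoxic T cells. They carry natural killer receptors, depend on T-box transcription factors, and answer inflammatory cytokines with interferon gamma. Intraepithelial lymphocytes sit between the epithelial cells of the gut, are held there by the integrin CD103 on E-cadherin, and are rich in granzymes and in the CD8αα homodimer.

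The marker genes lay on the side of their labels, though 1 of them, Klrb1c, was not called. Cd8a, Ncr1 and Klrb1c encode the sort markers, so their direction is no separate check of the labels. Cd8a (ENSMUSG00000053977), the CD8 alpha chain and the sort marker of iCD8a cells, was at 2636 CPM in iCD8a cells, 4.41 in ILC1 and 28.3 in CD11b+. Cd8b1, the CD8 beta chain, was at 45.1, 0.273 and 1.42 CPM. Gzma, a granzyme, was at 25743 against 1076 CPM, and Itgae, the alpha chain of CD103, at 2989.7 against 315. Ncr1 (ENSMUSG00000062524), which encodes NKp46, was at 1.44 CPM in iCD8a cells and 396 in ILC1, a difference of 275-fold (197 to 398). Eomes, a T-box factor, was at 0.592 and 448. The sort on NKp46 and NK1.1 does not part natural killer cells from related innate lymphocytes, and their shares in the ILC1 library were not tested. The NK1.1 gene Klrb1c was at 207 CPM in the iCD8a library and 546 in the ILC1 library, higher in ILC1 by 2.63-fold (2.55 to 2.72), and did not pass the rule for a called gene given below. Rag1 and Rag2 had 0 counts in both libraries, but mature lymphocytes with intact Rag genes lack these transcripts too, so the zeros do not check the genotype.

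The promoters of the genes that mark each side are shown from the RefSeq promoter table (GRCm38.p6), because these genes mark the 2 sides; Samd3 was added after its motif match was seen, and no Itgae window is shown. Each run holds the 250 bases before the annotated start, 5′ to 3′ on the strand of the gene, in lower case. Capitals mark matches to any of the motifs searched on both strands: AGGTGTGA for T-box factors, GAGGAAGT for PU.1 and Spi-B, TGTGGTTT for RUNX factors, TTCAAAGG for TCF7, CACCTG for E-proteins, TGAGTCA for AP-1 and GGGCGG, the GC box. The E-protein and T-box motifs can overlap, which no match shown here does. Gzma, on the minus strand at chr13:113100982-113101231, holds a pair of E-protein matches and 1 RUNX match. Gzmb, on the minus strand at chr14:56262335-56262584, holds 1 AP-1 match. Samd3, one of the genes furthest above iCD8a in ILC1, lies on the plus strand at chr10:26229457-26229706 and holds 1 T-box match. Cd8a (plus strand, chr6:71373177-71373426), Eomes (plus strand, chr9:118477939-118478188) and Ncr1 (plus strand, chr7:4337465-4337714) hold no match, which says only that these letters are not in these windows.
Gzma: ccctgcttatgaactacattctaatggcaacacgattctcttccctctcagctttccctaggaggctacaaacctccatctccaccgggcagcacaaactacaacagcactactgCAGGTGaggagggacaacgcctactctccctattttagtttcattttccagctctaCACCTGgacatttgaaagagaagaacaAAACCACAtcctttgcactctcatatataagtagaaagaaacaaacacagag
Gzmb: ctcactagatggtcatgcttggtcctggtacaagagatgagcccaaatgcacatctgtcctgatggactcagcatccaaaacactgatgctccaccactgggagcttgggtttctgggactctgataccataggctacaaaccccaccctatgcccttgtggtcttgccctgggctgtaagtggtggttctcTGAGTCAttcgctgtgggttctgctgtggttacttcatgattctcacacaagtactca
Samd3: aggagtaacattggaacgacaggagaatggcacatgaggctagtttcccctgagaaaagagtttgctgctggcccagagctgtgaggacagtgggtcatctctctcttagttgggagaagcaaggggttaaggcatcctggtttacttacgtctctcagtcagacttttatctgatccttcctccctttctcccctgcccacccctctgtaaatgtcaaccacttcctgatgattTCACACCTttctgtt
Cd8a: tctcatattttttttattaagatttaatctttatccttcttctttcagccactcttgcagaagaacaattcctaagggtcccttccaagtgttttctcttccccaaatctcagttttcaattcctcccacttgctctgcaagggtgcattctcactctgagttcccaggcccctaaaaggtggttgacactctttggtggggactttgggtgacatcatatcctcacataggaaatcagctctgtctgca
Eomes: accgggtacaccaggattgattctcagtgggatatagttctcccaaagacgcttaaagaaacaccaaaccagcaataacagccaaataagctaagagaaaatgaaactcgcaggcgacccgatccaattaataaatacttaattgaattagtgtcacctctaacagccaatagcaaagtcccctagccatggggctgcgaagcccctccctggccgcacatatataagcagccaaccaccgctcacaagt
Ncr1: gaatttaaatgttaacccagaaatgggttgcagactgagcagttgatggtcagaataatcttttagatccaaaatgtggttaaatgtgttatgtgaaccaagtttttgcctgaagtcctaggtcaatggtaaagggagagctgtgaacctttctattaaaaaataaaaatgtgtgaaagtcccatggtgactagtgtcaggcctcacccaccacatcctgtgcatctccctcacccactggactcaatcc

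Over windows of 250 bases before and 50 after the start, 272 of the 344 protein-coding genes higher in iCD8a and 341 of the 465 higher in ILC1 had an entry. An AP-1 match stood in 6.99% of the former and 9.68% of the latter, against 4.34% of measured protein-coding genes and 5.95% of all promoters. T-box matches stood in 1 gene and 9 genes, 0.368% and 2.64%, against 1.04% of measured genes and 1.48% of all promoters. For the PU.1 and Spi-B motif the shares were 5.15% and 4.69%, with 3.88% of measured genes and 3.69% of all promoters. The RUNX motif stood in 3.31% and 2.05% (1.5% of measured genes, 2.11% of all promoters), and the TCF7 motif in 0.735% and 0.587% (1.06% and 1.69%). E-protein matches were found in 28.7% and 24% (20.3% and 22.6%). GC boxes stood in 57.7% and 61%, against 70.7% of measured genes and 38.2% of all promoters. A match is a description of letters and not of a bound site.

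The 2 libraries were alike over most genes and far apart over a small share of them. Of the measured genes, 8062 (79.7%) lay within 2-fold of each other and 61.7% within 1.5-fold. The median log2 ratio of iCD8a over ILC1 was 0.06, with quartiles of −0.38 and 0.48. A gene was called higher in 1 library when its fold was at least 4, the bound of its interval nearest to 1 was at least 2, and its level was at least 5 CPM in the higher library. This rule called 356 genes higher in iCD8a, 3.52% of measured genes, and 494 higher in ILC1, 4.89%, which makes 8.41% in either direction. Counts of calls within the gene lists below are to be read beside these shares. Differences of at least 16-fold were found in 110 of the 356 and 192 of the 494, and of at least 64-fold in 36 and 58. The called genes took 8.97% of all gene counts in iCD8a on its side and 7.73% in ILC1 on the other. The median ratio moved with the level of the gene, from 0.28 between 5 and 20 CPM to −0.33 at 500 CPM and more.

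**Figure D1:**
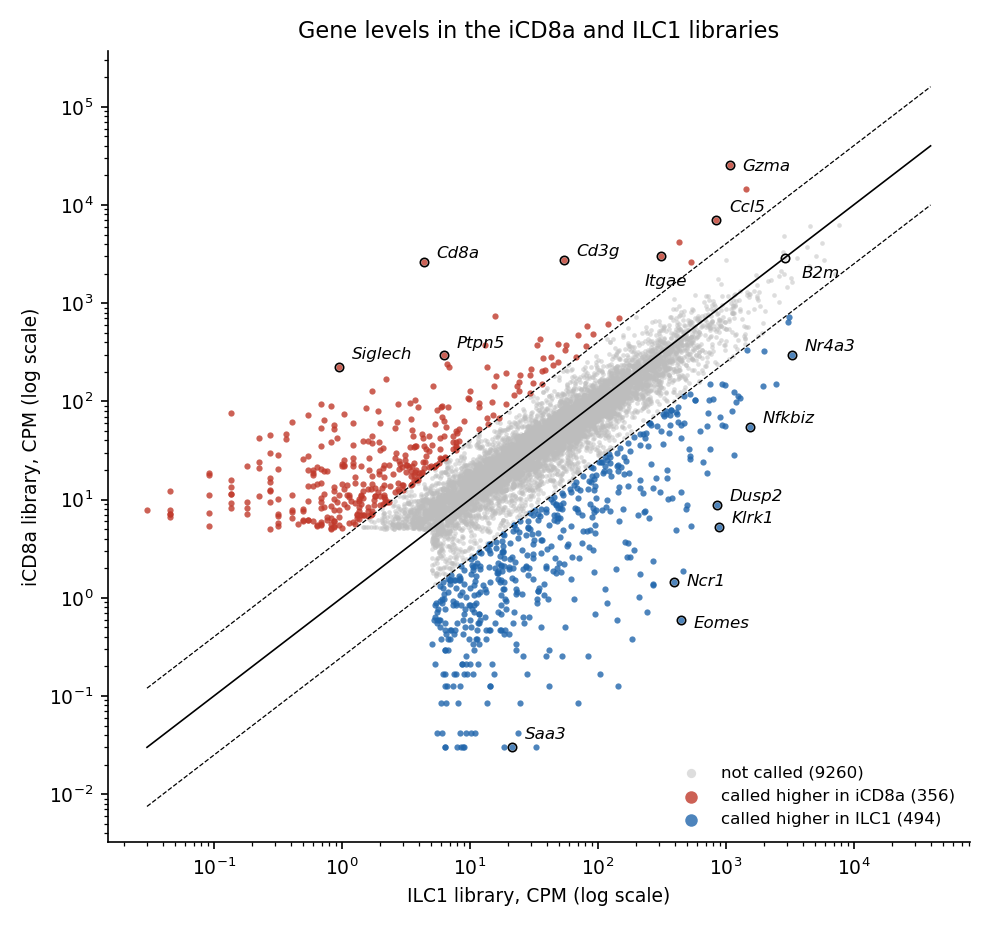
Levels of the 10110 measured genes in the ILC1 library (x axis, CPM, log scale) and the iCD8a library (y axis, CPM, log scale), with 1 point a gene. Red points are the 356 genes called higher in iCD8a and blue points the 494 called higher in ILC1; the solid line marks equal levels, the dashed lines a 4-fold difference, and genes at 0 are drawn at 0.03 CPM. The grey bulk follows the solid line, Cd8a and Gzma lie far above it, and Ncr1 and Eomes far below it.

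Among the genes with the largest CPM difference in favour of iCD8a were granzymes, a chemokine and a surface protein of lymphocytes. Gzmb, the granzyme that starts apoptosis in target cells, was at 14623 CPM in iCD8a cells, 1449 in ILC1 and 1198 in CD11b+. Ccl5, a chemokine of activated cytotoxic lymphocytes, was at 7002, 848 and 632 CPM (8.26-fold, 8.14 to 8.39). Cd7, an immunoglobulin-type receptor of T and innate lymphoid cells, was at 4223 against 435 CPM. Fgl2, a secreted fibrinogen-like protein of lymphocytes and macrophages, was at 2636 CPM in iCD8a cells, 534 in ILC1 and 934 in CD11b+, 4.94-fold (4.84 to 5.03) above ILC1. Both granzymes and Ccl5 were highest in iCD8a and were also counted in ILC1 and CD11b+.

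Granule genes as a group did not follow the granzymes. Of the 24 measured members of the cytotoxic granule and killing list, 2, Gzma and Gzmb, were higher in iCD8a and 2, Serpinb9b and Stx11, in ILC1, with a median log2 ratio of 0.07. Each side thus held 8.33% of the list, against 3.52% and 4.89% of all measured genes. Within 2-fold lay 11 of the 24, a share below the 79.7% of all measured genes. Perforin (Prf1) was at 284 and 325 CPM, Fas ligand (Fasl) at 224 and 228, and the granule proteoglycan serglycin (Srgn) at 1289 and 1474. Serpinb9b, a serpin of a family that inhibits granzymes, was at 0.0846 CPM in iCD8a cells, on 2 counts, and 24.7 in ILC1 (292-fold, 80.5 to 2418). Stx11, a syntaxin needed for granule release, was 4.74-fold (4.37 to 5.15) higher in ILC1. With a minimum of 1 CPM in place of 5 the median of the list was −0.11, so its sign depends on which members are counted. Granzyme genes have close copies, so that their single levels are uncertain. The strand setting of the counts is not stated, so reads of overlapping or antisense partners cannot be told apart for any gene here.

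Surface receptors were called on both sides. Lag3, an inhibitory receptor for MHC class II, was at 705 CPM in iCD8a cells, 148 in ILC1 and 68.4 in CD11b+ (4.77-fold, 4.59 to 4.95). Cd200r2, of the CD200 receptor family, was at 428, 35.5 and 16.1 CPM (12.1-fold, 11.2 to 13), and its relative Cd200r4 at 337, 56 and 26.3 (6.02-fold, 5.67 to 6.4). Havcr1, which encodes TIM-1, was at 12.1 CPM in iCD8a cells and on 1 count in ILC1, and Btla, an inhibitory receptor for HVEM, at 9.39 against 0.273 CPM. In the other direction the costimulatory receptors Icos (3.05 CPM in iCD8a cells, 192 in ILC1) and Cd226 (5.46 and 94.7) were higher in ILC1. Of 22 measured genes of costimulation and checkpoints, 5 were higher in iCD8a and 4 in ILC1, while Tigit was level, at 148 and 149.6 CPM.

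Genes with wide ratios in iCD8a included Ky and Adam11. Ky, a muscle protein whose loss causes kyphoscoliosis in mice, was at 41.7 CPM in iCD8a cells, 0.364 in ILC1 and 3.47 in CD11b+, 115-fold (58 to 267) above ILC1. Adam11, a catalytically inactive ADAM protein of the nervous system, was at 72.1, 0.545 and 5.03. Each of these genes was counted in CD11b+ at a level between those of iCD8a and ILC1.

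Nrp2, a neuropilin that binds semaphorins and VEGF, was at 89.8 CPM in iCD8a cells, 0.818 in ILC1 and 13.1 in CD11b+. Gpx8, an endoplasmic reticulum peroxidase, was at 167, 2.23 and 13.6 CPM, and Htra3, a secreted serine protease, at 126, 1.73 and 25.3. Grb10, an adaptor that dampens insulin receptor signalling, was 70.9-fold (47.1 to 112) higher in iCD8a, Mras, a small GTPase, 77.9-fold (47.1 to 139.6), and Spats2 89.5-fold (54.9 to 157). Il34, a ligand of the CSF1 receptor, was at 29.8 against 0.273 CPM (109-fold, 50 to 299). All of these genes were also lower in CD11b+ than in iCD8a.

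Scin, which encodes the actin-severing protein scinderin, was at 733 CPM in iCD8a cells, 15.8 in ILC1 and 79.4 in CD11b+ (46.4-fold, 41.7 to 51.7). Ptpn5, a tyrosine phosphatase best known from striatal neurons, was at 299.7, 6.32 and 24 CPM (47.5-fold, 40.1 to 56.5). Mcam, an adhesion molecule of vessels and some lymphocytes, was 11.3-fold (10.5 to 12.2) higher, and Tspan9, a tetraspanin, 7.9-fold (7.41 to 8.42). Adrb1, the beta-1 adrenergic receptor, was at 129 against 10 CPM in iCD8a cells and ILC1. Of 18 measured genes of the neuronal, synaptic and hormone receptor list, 4 were called on each side. Dscam, a neural adhesion molecule, was 155-fold (71.1 to 424) higher in ILC1, on 6 counts in iCD8a.

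**Figure D2:**
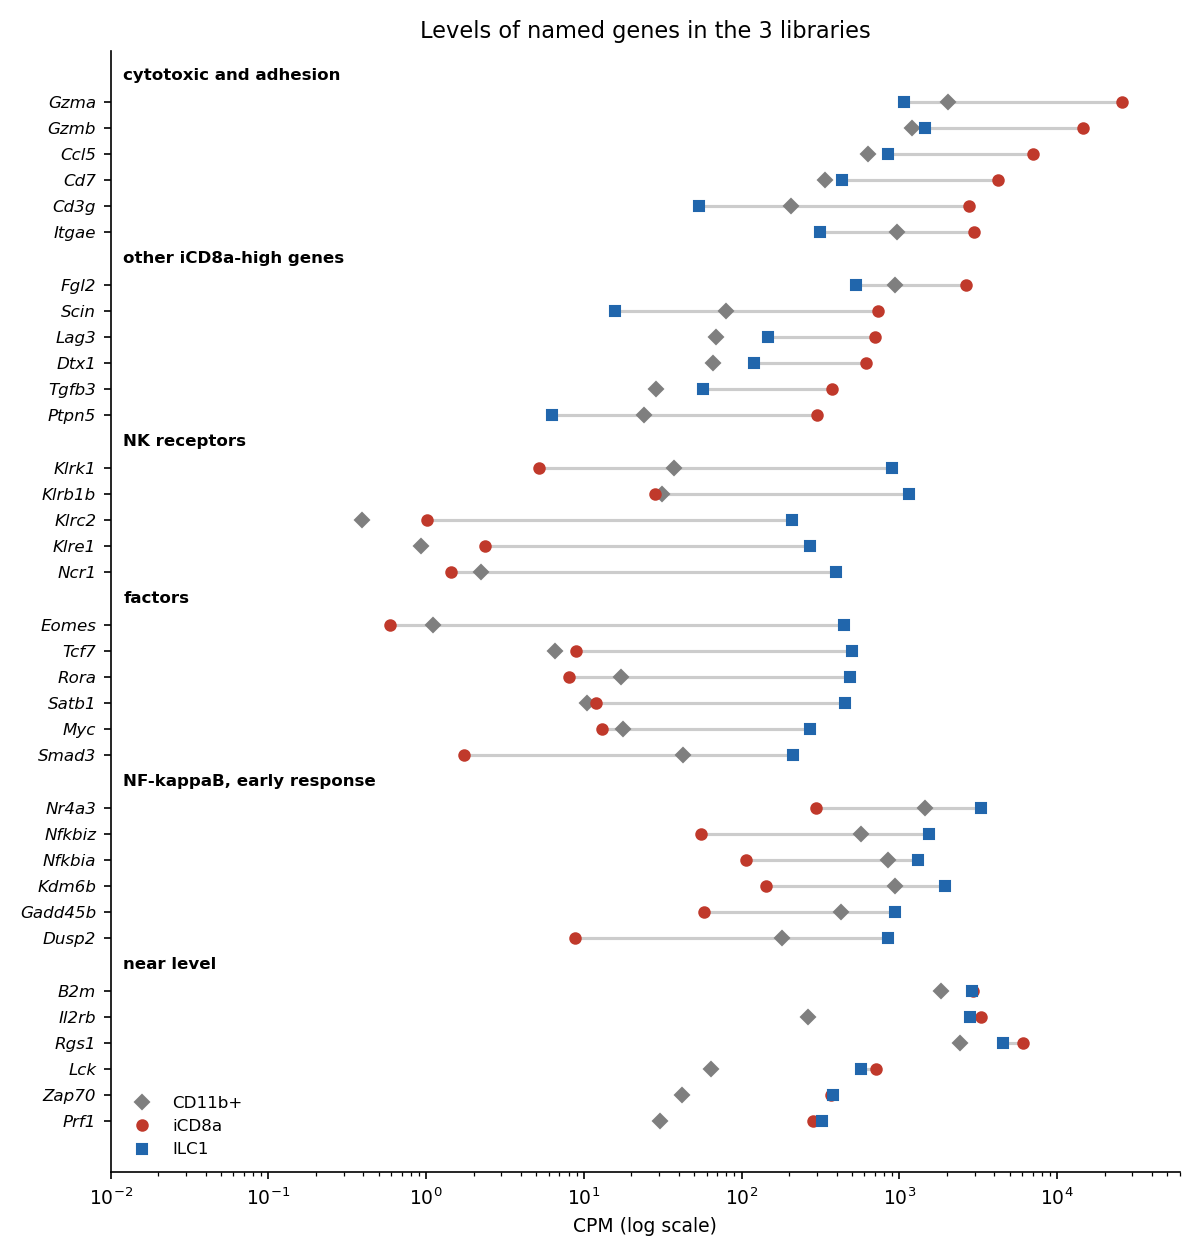
Levels of 35 named genes, grouped by role or by direction, in CPM on a log scale, with 1 point a library (red circle iCD8a, blue square ILC1, grey diamond CD11b+) and a grey line joining iCD8a and ILC1. The genes were picked from the named ones with their values known, so the side on which each group lies follows from that choice. Red lies right of blue in the upper 2 groups, blue right of red in the next 3, and the genes of the last group lie near each other in iCD8a and ILC1.

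Natural killer receptors were mostly higher in ILC1. Of 31 measured receptor genes, 18 were called higher in ILC1 and 1, Klra17, in iCD8a (median log2 ratio −4.75, against 0.06 over all measured genes). Klrk1, which encodes the activating receptor NKG2D, was at 5.2 CPM in iCD8a cells, 895 in ILC1 and 37.5 in CD11b+ (172-fold, 144 to 207). Klrb1b, an inhibitory receptor for the lectin Clr-b, was at 28.4, 1153 and 31.1 CPM (40.6-fold, 37.6 to 43.9). Klre1 was at 2.37 against 272 CPM, and Klrc2, which encodes NKG2C, at 1.02 against 209. These lectin receptors were low in iCD8a and in CD11b+ alike.

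Receptors that did not pass the rule were not all level, since 5 of the 31 lay within 2-fold. Klrd1, which encodes CD94, the partner chain of the NKG2 receptors, was at 196 CPM in iCD8a cells and 317 in ILC1. Klrb1a was at 103 and 78.7, Cd96 at 663 and 302, and Il2rb, a chain of the receptors for interleukins 2 and 15, at 3288 and 2825. Ly49 (Klra) genes are near-identical copies, and reads with several alignments were left uncounted, so single Klra levels are uncertain. Klra1 rests on 1 count in iCD8a and Klra9 on 2, with ratios of 558-fold (99.8 to 22097) and 827-fold (229 to 6838).

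Antigen receptor and coreceptor genes leaned to iCD8a, with calls on both sides. Of 21 measured, 9 were higher in iCD8a and 4 in ILC1, with a median log2 ratio of 1.79. The 9 were the CD3 chain genes Cd3d, Cd3e and Cd3g, the sort gene Cd8a, and Cd8b1, Trac, Tcrg-C2, Cd7 and Themis. The 4 were Cd247, Cd28, Thy1 and Cd2. Themis, a protein of thymocyte signalling, was at 12.4 CPM in iCD8a cells and 0.273 in ILC1, and Trac, the constant segment of the T cell receptor alpha chain, at 35.1 and 3.77. Trbc1, the beta chain constant segment, was counted in both, at 214 and 222 CPM. Transcripts of unrearranged constant segments are known in RAG-deficient lymphocytes, and these counts do not show a receptor chain. Thy1, a surface glycoprotein of T cells and innate lymphoid cells, was at 4.87 CPM in iCD8a cells, 412 in ILC1 and 30.2 in CD11b+ (84.7-fold, 70.5 to 103), and Cd2 at 0.677, 95.6 and 1.88.

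Signalling genes below antigen receptors had a median near level but spread wider than all measured genes. Within 2-fold lay 31 of 47, a share below the 79.7% of all measured genes. Of 47 measured, 1, Blnk, was higher in iCD8a (2.13%) and 3 in ILC1 (6.38%), against 3.52% and 4.89% of all measured genes. The median log2 ratio was −0.17. The kinase Fyn was at 764 and 684 CPM and the exchange factor Vav1 at 191 and 214. Syk, a kinase of the same family as Zap70, was at 352 and 135, and Lat at 22.3 and 50. Pik3r5, a regulatory subunit of the gamma isoform of phosphoinositide 3-kinase, was at 16.8 CPM in iCD8a cells, 346 in ILC1 and 295 in CD11b+ (20.6-fold, 18.6 to 22.9). Inpp4b, a phosphatase that ends phosphoinositide signals, was 12-fold (10.6 to 13.6) higher in ILC1.

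Transcription factor genes were called 17 times in ILC1 and 3 times in iCD8a, among 73 measured. Rora, a nuclear receptor of innate lymphoid cell development, was at 8.04 CPM in iCD8a cells, 487 in ILC1 and 17.3 in CD11b+ (60.5-fold, 52.5 to 70.3). Satb1, a chromatin organiser of T lineage cells, was at 11.9, 449.7 and 10.5 CPM (37.8-fold, 33.6 to 42.7). Myc, which drives growth and biosynthesis, was at 13, 273 and 17.7 (20.9-fold, 18.6 to 23.5). All 3 were highest in ILC1.

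Lef1, a partner of Tcf7, was 11.5-fold (8.19 to 16.7) higher in ILC1, and Klf2, which drives S1pr1 and exit from tissue, 6.82-fold (6.07 to 7.68). S1pr1 itself, the receptor that guides lymphocytes out of tissue, had 1 count in iCD8a and 5.54 CPM in ILC1. On the iCD8a side Bcl11a, a factor of B cells and plasmacytoid dendritic cells, was at 20.3 CPM against 0.318, and Lmo2, a haematopoietic adaptor, at 9.48 against 0.909. Runx3, which is needed for CD8 and CD103 expression, was at 316 and 407 CPM, Ikzf1 at 396 and 419, and Foxo1 at 349 and 291. Id2, the factor common to innate lymphoid cells, was at 237 and 488 and did not pass the rule.

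Cytokine receptors differed in both directions. Of 33 measured, 10 were higher in ILC1 and 5 in iCD8a. Il18rap, the second chain of the interleukin 18 receptor, was at 5.42 CPM in iCD8a cells, 535 in ILC1 and 15.4 in CD11b+ (98.8-fold, 83 to 119). Il2ra, the high-affinity interleukin 2 receptor chain, was at 1.95 against 139.5 CPM, and Il4ra at 331 against 1467 (4.43-fold, 4.32 to 4.54). The ILC1 side also held Kit, the stem cell factor receptor (150.1 CPM in iCD8a cells, 934 in ILC1, 170.5 in CD11b+), and Csf1r, the receptor of macrophage growth factors (1.44, 14.4 and 959.6). The iCD8a side held Csf2rb2 (60.7 CPM in iCD8a cells, 1.23 in ILC1, 144 in CD11b+), Flt3 (35.1, 0.682 and 279.7) and Lifr (13.6, 0.545 and 42.3). Csf2rb2, Flt3 and Lifr were higher in CD11b+ than in either. Il21r was level, at 759 and 729 CPM.

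Cytokines and growth factors were mostly called higher in ILC1, in 14 of 23 measured, with 3 higher in iCD8a and a median log2 ratio of −3.19. Over the 52 listed genes with a matched symbol, measured or not, the summed levels were highest in CD11b+. They were 1112 CPM in iCD8a cells, 3006 in ILC1 and 4974 in CD11b+. Vegfa, the vascular growth factor, was at 56.8 CPM in iCD8a cells, 997 in ILC1 and 286 in CD11b+ (17.6-fold, 16.6 to 18.6). Csf2, which encodes GM-CSF, was at 0.635 against 26.2 CPM, Lif at 0.55 against 21.8, and Osm, oncostatin M, at 0.423, 18.7 and 145. Lymphotoxin beta (Ltb) was 14-fold (12 to 16.3) higher in ILC1. Tgfb3, a transforming growth factor, went the other way, at 375 CPM in iCD8a cells, 56.6 in ILC1 and 28.6 in CD11b+ (6.62-fold, 6.24 to 7.03), while its relative Tgfb1 was at 292 and 1134 and did not pass the rule, though it did with upper-quartile factors.

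In the TNF superfamily 10 of 31 measured genes were called in ILC1 and 2 in iCD8a. The ILC1 side held Tnfsf11, which encodes RANKL (0.169 against 15.4 CPM), Tnfsf4, which encodes OX40 ligand (0.169 against 10.6), Tnfrsf25 (0.254 against 25.9) and the death receptor Fas (0.212 against 14.9). The iCD8a side held Tnfrsf13b, which encodes the BAFF receptor TACI, at 39.7 CPM against 1.45 in ILC1 and 47.9 in CD11b+ (27.3-fold, 19.2 to 40.2). Tnfrsf1a was at 196 and 127, and the costimulatory receptor Tnfrsf9 at 324 and 182.

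Genes of movement and adhesion divided along similar lines. Of 18 measured chemokine and migration receptors, 5 were higher in ILC1 and 0 in iCD8a. Cxcr4, the receptor for CXCL12, was at 24.1 CPM in iCD8a cells, 661 in ILC1 and 278 in CD11b+ (27.4-fold, 25.2 to 29.9), and Ccr2 at 10.2, 355 and 331 (34.8-fold, 30.6 to 39.7). The small intestinal homing receptor Ccr9 was at 205 against 79.7, and Cxcr6 at 189 against 311; neither passed the rule.

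Of 41 measured integrin and adhesion genes, 10 were called higher in ILC1 and 4 in iCD8a. The integrin chains Itgal (55.6 against 709.6 CPM, 12.8-fold, 12.1 to 13.5), Itga4 (60.6 against 473, 7.8-fold, 7.38 to 8.25) and Itgb3 (82 against 377, 4.6-fold, 4.38 to 4.84) were higher in ILC1. Icam1, the ligand of the Itgal integrin LFA-1, was at 80.1 CPM in iCD8a cells, 1121 in ILC1 and 318 in CD11b+ (14-fold, 13.3 to 14.7). Itgb7, the partner of Itgae in CD103, was at 805 and 538 CPM, and Cdh1, the E-cadherin that it binds, at 359 and 289; these differences stayed under 4-fold while Itgae was 9.5-fold (9.27 to 9.74) higher in iCD8a.

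Genes of the NF-κB pathway and of the immediate early response were higher in ILC1 in large numbers. Of 23 measured NF-κB genes, 9 were called higher in ILC1 and 0 in iCD8a (median log2 ratio −1.82). Of 53 immediate early and dissociation genes the counts were 19 and 0, with a median of −1.59. The called genes Nfkbia, Nfkbid and Nfkbiz stand in both lists, so the 2 counts are not separate. Nfkbiz, an inducible nuclear IκB protein, was at 55 CPM in iCD8a cells, 1546 in ILC1 and 575 in CD11b+ (28.1-fold, 26.6 to 29.7). Nfkbia, the classical NF-κB inhibitor and a target of the pathway, was at 107, 1305 and 842 CPM (12.2-fold, 11.7 to 12.7). The subunit genes Rel (57.4 against 367 CPM) and Nfkb1 (103 against 578) were higher in ILC1 too, whereas Rela, at 121 against 296, did not pass the rule.

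Nr4a3, an orphan nuclear receptor induced by stimulation, was at 295 CPM in iCD8a cells, 3286 in ILC1 and 1462 in CD11b+ (11.1-fold, 10.9 to 11.4). Kdm6b, a histone demethylase induced by inflammatory signals, was at 143, 1952 and 936 CPM (13.7-fold, 13.2 to 14.2). Gadd45b, a stress response gene, was 16.3-fold (15.4 to 17.2) higher in ILC1, the kinase Pim1 6.25-fold (6.1 to 6.4), and Odc1, the first enzyme of polyamine synthesis, 11-fold (10.6 to 11.5). Ern1, which encodes the stress sensor IRE1α, was at 125, 1162 and 124 CPM. For Nr4a3, Kdm6b and Ern1 the ILC1 level was the highest of the 3 libraries.

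Other stimulus-responsive genes differed less. Fos was at 355 CPM in iCD8a cells and 786 in ILC1, Jun at 328 and 794, and the heat shock genes Hspa1a at 124 and 345 and Hsph1 at 339 and 1236. Dusp6 and Rgs1 were near level, at 93.2 and 90.1 and at 6055 and 4548. Bhlhe40, a basic helix-loop-helix repressor of interleukin 10, was 4.32-fold (4.25 to 4.39) higher in ILC1, close to the 4-fold threshold. The list holds genes that tissue dissociation can induce. The sources used here do not give how the 2 sorts were timed, and the part of handling in these differences was not tested.

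TGF-β and Notch genes were called on both sides, 7 of 38 in ILC1 and 4 in iCD8a. Smad3, a transcription factor that carries TGF-β signals, was at 1.73 CPM in iCD8a cells, 213 in ILC1 and 42.5 in CD11b+ (123-fold, 90.2 to 171), while Smad2 was level, at 43.4 and 44. Among Notch genes, Dtx1, a Notch-regulated ubiquitin ligase, was higher in iCD8a (614 against 120.5 CPM, 5.1-fold, 4.89 to 5.31). Nrarp, another Notch target, was higher in ILC1 (12.1 against 306, 25.4-fold, 22.6 to 28.7), and so was Hes1 (0.339 against 10.6). Notch3 was at 10.4 against 0.682 CPM, and Tgfbr2, the TGF-β receptor, at 292 and 305. Of 24 JAK, STAT and SOCS genes, the feedback inhibitors Socs3 (15.9-fold, 14.8 to 17.1) and Cish (5.54-fold, 5.26 to 5.83) were higher in ILC1 and 0 in iCD8a. In retinoid metabolism Dhrs3, a retinal reductase, was 133-fold (86.8 to 215) higher in ILC1.

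Markers of other cell types were found on each side. Of 27 measured genes of plasmacytoid dendritic cells, 17 were higher in iCD8a and 0 in ILC1 (median log2 ratio 3.18). The summed level of all 28 listed genes, measured or not, was 2143 CPM in iCD8a cells, 1801 in ILC1 and 1119 in CD11b+. Dntt, which encodes terminal transferase, was at 18.5 CPM in iCD8a cells, on 2 counts in ILC1 and at 0.603 CPM in CD11b+. The endosomal sensors Tlr9 (11.3 against 0.136 CPM) and Tlr7 (35.7 against 5.04) were higher in iCD8a. None of the 28 listed genes was at 0 in iCD8a, and Grm8 alone was at 0 in ILC1. The factors Tcf4 (142 and 57.3 CPM) and Irf8 (469.6 and 1183), which other cells share, did not pass the rule.

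Of 22 measured genes of classical dendritic cells, 11 were higher in iCD8a and 2, Zbtb46 and Ly75, in ILC1. The other 7 listed genes, among them Xcr1, Batf3, Cadm1 and Tlr3, were below 5 CPM in both. The 11 include Epcam and Dpp4, which stand in the epithelial and purinergic lists too. Over all 29 listed genes, measured or not, the summed levels were 5114, 2934 and 9108 CPM in iCD8a cells, ILC1 and CD11b+. Clec9a, a receptor for dead cells on cross-presenting dendritic cells, was at 21.9, 0.182 and 3.97 CPM (121-fold, 46.8 to 444). Itgae stands in that list too, and its 2989.7 and 315 CPM enter those sums. Of 13 measured MHC class II genes, 1, H2-Oa, passed the rule (4 did without TMM factors), and the median log2 ratio was 1.39: Cd74 was at 430.3, 119 and 18551 CPM. Cd207 had 0 counts in both libraries.

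B cell genes were higher in iCD8a in 7 of 11 measured and in ILC1 in 0. Over the 32 listed genes with a matched symbol, measured or not, the summed levels were 984, 523 and 834 CPM in iCD8a cells, ILC1 and CD11b+. Fcrla, an intracellular Fc receptor-like protein, was at 23.9 CPM in iCD8a cells against 0.227, and Cd79b, a chain of the B cell receptor, at 24.6 against 2.82. Of the called genes, Spib, Dntt, Bcl11a, Mzb1 and Blnk stand in the plasmacytoid list as well. The defining B cell genes Ms4a1 and Pax5 were at 0 in both libraries.

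Macrophage and monocyte genes stood on the ILC1 side. Of 21 measured, 16 were higher in ILC1 and 1, Ly6c2, in iCD8a (median log2 ratio −4.75). Over all 36 listed genes, measured or not, the summed levels were 506 CPM in iCD8a cells, 1721 in ILC1 and 17123 in CD11b+. Prg4, which encodes the lubricant proteoglycan 4, was at 0.508, 56 and 5.0 CPM (110.3-fold, 62.9 to 214). Alox15, a lipoxygenase of resident macrophages, was at 0.296, 41.5 and 65 (140.1-fold, 67.7 to 349). C1qa, a chain of complement C1q, was at 0.465, 17.7 and 185, and Adgre1, an adhesion receptor of macrophages, at 0.465, 14.1 and 288.

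Prg4 stood higher in ILC1 than in CD11b+, whereas C1qa and Adgre1 were lower in ILC1 than in CD11b+. Trem2, Timd4, Selp and Fabp4 had 0 counts in iCD8a. Selp, which encodes P-selectin, was at 6.36 CPM in ILC1, at least 50.1-fold higher than the floor of 3 counts in iCD8a. Saa3, an acute phase protein of macrophages and stroma, was at 0 counts in iCD8a, 21.5 CPM in ILC1 and 1.99 in CD11b+, at least 169.7-fold higher in ILC1. C4b, complement component 4, was 208-fold (95.2 to 567) higher in ILC1. The chemokine Cxcl1 had 0 counts in iCD8a and 8.95 CPM in ILC1, and Cxcl2 and Il1a, of inflammatory myeloid cells, were at 33.4 and 12 CPM in ILC1 and below 1 CPM in iCD8a cells. The part of myeloid cells in the ILC1 values, and of dendritic cells in the iCD8a values, was not tested. Leaving the macrophage, plasmacytoid and epithelial lists out of the counts left 339 genes called higher in iCD8a and 482 in ILC1. That step removes the listed genes alone, so it cannot measure the part of other cells.

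Intestinal epithelial genes were near level between the 2 libraries. Of 18 measured, 2, Cdh17 and Epcam, were higher in iCD8a and 0 in ILC1, with a median log2 ratio of 0.09. The summed level of all 38 listed genes, measured or not, was 962 CPM in iCD8a cells, 584 in ILC1 and 2941 in CD11b+. Cdh17, an intestinal cadherin, was at 193 against 19.1 CPM (10.1-fold, 9.12 to 11.2), while enterocyte genes such as Apoa1 (15.3 and 15) and Reg3b (55.1 and 46.4) were level. Secretory epithelial genes were called on neither side, with 10 measured.

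Paired receptors of the myeloid and innate type leaned to iCD8a. Of 19 measured, 10 were called higher there and 2, Clec4e and Treml2, in ILC1. Among the 10, Lair1, Cd300c and Siglech stand in the plasmacytoid list too, and Sirpa in the classical dendritic cell list. The counts of these lists are therefore not separate. Cd300c, an activating receptor of the CD300 family, was at 17.6 CPM in iCD8a cells, 0.0909 in ILC1 and 4.47 in CD11b+ (194-fold, 53.4 to 1609), resting on 2 counts in ILC1. Clec12a, an inhibitory lectin, was at 21.6, 0.636 and 61.8 CPM (34-fold, 20.1 to 62.6), and Cd33, a sialic acid binding lectin, at 23.4, 1.23 and 158 (19.1-fold, 13 to 29.2). Clec4e, a receptor for microbial glycolipids, was at 0.677, 11.9 and 238. The adaptors that such receptors signal through were nearer to level, with Hcst, which encodes DAP10, at 25.3 and 59 CPM and Fcer1g, the common Fc receptor chain, at 870.3 and 409.6.

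Chemokine genes other than Ccl5 were higher in ILC1 or not called. Of 10 measured, 6 were called in ILC1 and 1, Ccl5, in iCD8a. Cxcl10, an interferon-induced attractant of CXCR3-bearing cells, was at 35.2 CPM in iCD8a cells, 247 in ILC1 and 137 in CD11b+ (6.99-fold, 6.5 to 7.53). Ccl6 (1.99, 15.9 and 412 CPM) and Ccl9 (0.889, 11.2 and 219.8), a pair of myeloid chemokines, were highest in CD11b+. The inflammatory chemokines Ccl3 and Ccl4 were at 45.2 and 141 and at 119 and 148 CPM in iCD8a and ILC1, and neither passed the rule.

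Of MHC class I genes 21 of 28 measured lay within 2-fold, and of interferon-stimulated genes 30 of 40. Both shares were below the 79.7% of all measured genes. Of 28 measured class I genes, 2, H2-Q7 (636 against 3094 CPM, 4.86-fold, 4.78 to 4.95) and H2-Q10 (47.3 against 239.7, 5.07-fold, 4.75 to 5.41), were called higher in ILC1 and 0 in iCD8a. The class I calls came to 7.14% of measured members in ILC1 and 0% in iCD8a. H2-Q genes are near-identical copies, so that both values are uncertain. Of the 40 interferon-stimulated genes, 5 were called in ILC1 (12.5%) and 2 in iCD8a (5%), against 4.89% and 3.52% of all measured genes. Ifitm2, an antiviral membrane protein with close copies, was at 2.03, 29.3 and 283 CPM in the 3 libraries, and Ly6a, which encodes Sca-1, at 30, 2.64 and 9.22 (11.4-fold, 8.72 to 15.2 between iCD8a and ILC1). Ddx58, which encodes the viral RNA sensor RIG-I, was at 175 and 174. Among pattern recognition and inflammasome genes, 3 of 30 were called in ILC1 (10%) and 2 in iCD8a (6.67%), against 4.89% and 3.52% of all measured genes. The 2 in iCD8a, Tlr7 and Tlr9, stand in the plasmacytoid list too. The inflammasome sensor Nlrp3 was at 2.12, 17.5 and 515 CPM and the caspase Casp4 at 24, 108 and 39.6.

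Purine sensing and nucleotide-handling genes were called on the iCD8a side alone, 4 of 15 measured. P2ry13, an ADP receptor, was at 7.79 CPM in iCD8a cells, 0.409 in ILC1 and 11.2 in CD11b+ (19-fold, 9.81 to 42.3), and P2rx1, an ATP-gated channel, at 22.7, 3.23 and 17.3 (7.04-fold, 5.49 to 9.15). Dpp4, the peptidase CD26, was at 50.3, 7.77 and 335 (6.47-fold, 5.51 to 7.64), and Art2b, an ADP-ribosyltransferase, at 25.8, 5.95 and 3.44 (4.33-fold, 3.58 to 5.27). P2rx7, the ATP-gated channel of tissue-resident lymphocytes, was near level at 138 and 168 CPM.

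Genes of lipid mediators and nuclear receptors added calls on either side. Of 14 measured eicosanoid genes, Alox5 and Alox5ap, which start leukotriene synthesis, were called in iCD8a (10.9 against 1.82 and 24.4 against 4.32 CPM), and Alox15 and Ptgs2, the inducible prostaglandin synthase (2.24 against 16.6), in ILC1. In CD11b+ the levels of Alox5, Alox5ap and Ptgs2 were 43, 354 and 1233, the highest of the 3 libraries for each. Of 19 nuclear receptor genes, 4 were called in ILC1 and 0 in iCD8a. They include the retinoic acid receptor Rara (14.9 against 89.2 CPM, 5.97-fold, 5.33 to 6.71) and the estrogen receptor Esr1 (1.44 against 6.18, 4.3-fold, 2.93 to 6.45). The partner genes Arnt (94.5 and 95.6) and Rxrb (56.7 and 65.5) were near level.

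Some dual-specificity phosphatases, which act on MAP kinases, were higher in ILC1. Dusp2 was at 8.84 CPM in iCD8a cells, 854 in ILC1 and 181 in CD11b+ (96.5-fold, 84.2 to 111), Dusp4 at 2.54, 71.8 and 7.51 (28.3-fold, 21.9 to 37.3) and Dusp8 at 2.12, 27.8 and 8.76 (13.1-fold, 9.83 to 17.9). The receptor phosphatase Ptprf was higher in iCD8a, at 26.3 against 1.64 CPM. Of 42 measured phosphatases, 7 were called in ILC1 and 3 in iCD8a.

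Metabolic gene lists had calls at shares below and above those of all measured genes (3.52% in iCD8a, 4.89% in ILC1). Of 47 nuclear oxidative phosphorylation genes, 1 was called, Cox6a2, which stands in the plasmacytoid list too. Yet 44 of the 47 had a ratio above 1 in favour of iCD8a, with a median log2 ratio of 0.54 against 0.06 for all measured genes. The 12 mitochondrially encoded genes had a median of −0.53, on the other side. Cholesterol and fatty acid genes had a median of 0.53, with 3 of 45 (6.67%) higher in iCD8a and 2 (4.44%) in ILC1. The former include the desaturase Fads2 (18.1-fold, 12.3 to 27.7) and the sterol reductase Dhcr7 (4.15-fold, 3.81 to 4.53). Of 34 glycolysis genes, 3 (8.82%) were higher in ILC1, among them hexokinase 2 (Hk2, 31.3 against 178 CPM), and 0 in iCD8a. Lysosomal genes had 3 calls for iCD8a (6.82%), Cd63, Ctsh and Ctsl, and 1 for ILC1 (2.27%), Atp6v0d2, among 44 measured.

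Cell cycle genes were called at 2.22% in iCD8a and 4.44% in ILC1, near the shares of all measured genes (3.52% and 4.89%). Their median log2 ratio was 0.56, with 35 of 45 measured above 0. Ccnd1, cyclin D1, was higher in iCD8a (44.6 against 4.77 CPM, 9.34-fold, 7.64 to 11.5), and Cdkn1a, which encodes the cell cycle inhibitor p21 (13.8 against 173, 12.6-fold, 11.2 to 14.1), and Cdt1 in ILC1. Mki67, a marker of dividing cells, was at 59.1 and 52.4 CPM. All 48 measured ribosomal protein genes lay within 2-fold, with a median log2 ratio of −0.23. The log2 ratios of 40 housekeeping genes had an SD of 0.415, and 38 of them lay within 2-fold. B2m, the light chain of MHC class I, was at 2912 and 2909.6 CPM.

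**Figure D3:**
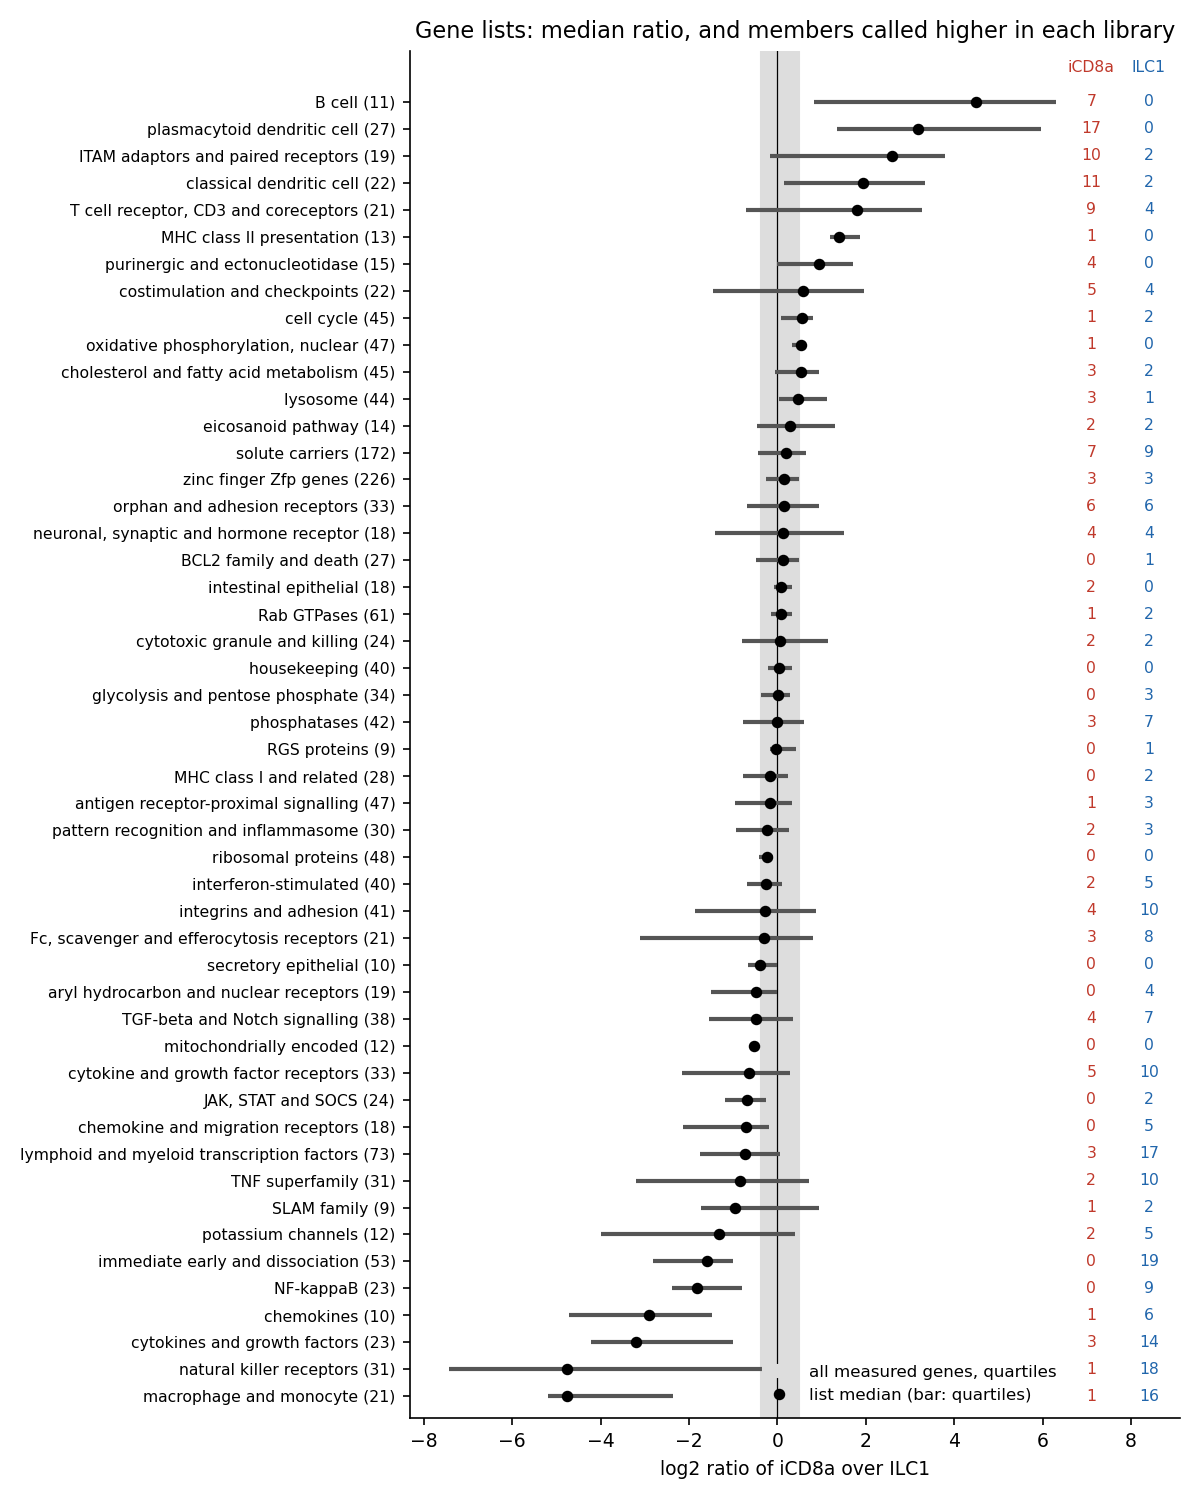
Log2 ratio of iCD8a over ILC1 for the gene lists with at least 5 measured members (number in brackets), as the median (point) and quartiles (bar). The grey band holds the quartiles of all measured genes, −0.38 to 0.48, and the columns at the right count the members called higher in iCD8a (red) and in ILC1 (blue). B cell and plasmacytoid dendritic cell lists lie furthest right, and natural killer receptor and macrophage lists furthest left, at −4.75 and −4.75.

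The CD11b+ library places the called genes beside myeloid cells of the same tissue. Of the 356 genes higher in iCD8a, 118 were higher still in CD11b+, 172 lay between and 66 were lower in CD11b+ than in both. For the 494 higher in ILC1 the numbers were 164, 230 and 100. Over all measured genes, CD11b+ was above both in 30.9%, between in 22.9% and below both in 46.2%, and a called gene leaves a wider range for the CD11b+ value to fall between. Mpeg1, a pore-forming protein of phagocytes, was at 375 CPM in iCD8a cells, 13.1 in ILC1 and 1363 in CD11b+, and Lgals3, galectin 3, at 481, 91.7 and 739. On the ILC1 side, Atp8b4, a lipid flippase, was at 0.254, 84 and 96.7, and Gpr132, a lipid and proton sensing receptor, at 69.9, 911 and 677.

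**Figure D4:**
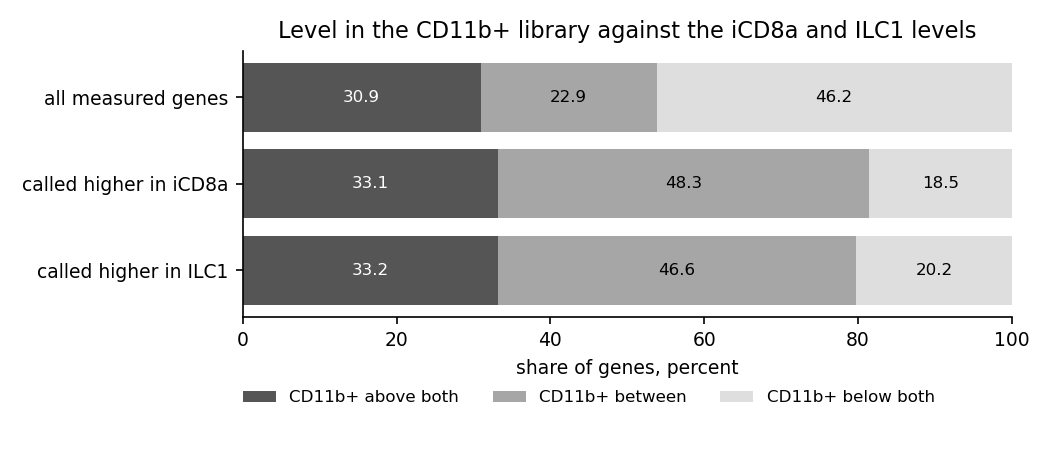
Share of genes, in percent, whose CD11b+ level lies above both, between or below both of the iCD8a and ILC1 levels (dark, middle and light grey), for all measured genes, the 356 called higher in iCD8a and the 494 called higher in ILC1. The share above both is 33.1% and 33.2% for the called genes and 30.9% for all measured genes.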

How the data were processed

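The authors deposited raw read counts per Ensembl gene for 3 sorted populations, with 1 library each; the cell type label gave each sample its group. Sequencing was on an Illumina HiSeq, with alignment by TopHat and counting by HTSeq (per the series' design text), and the submitters' processing notes name CASAVA 1.9 and TopHat2. Build, annotation and strand setting are absent from the sources used here, and FPKM values were not used here. The 5 closing entries that name no gene were dropped; ambiguous reads among them took 1.08% (iCD8a) and 0.889% (ILC1) of reads listed.

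Of 37224 IDs, 35449 were given GENCODE M21 symbols. TMM factors from edgeR 4.0.16 (R 4.3.3) over the 3 libraries were 1.09 (iCD8a), 0.992 (ILC1) and 0.925 (CD11b+). Each fold is a ratio of TMM-scaled counts with an exact binomial interval (scipy 1.17.1, Clopper-Pearson). Log2 ratios used a prior count of 0.5. A gene was measured at 5 CPM or more in either library. No p-value was computed, since no group has a replicate; a count test such as that of edgeR has no residual degrees of freedom. DESeq2 1.42.0 gave size factors for an alternative.

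The comparison and its gene lists were chosen with earlier results of these data known. Of 2845 list entries, 20 matched no symbol and were not analysed here. Per direction, the named genes are the 20 called protein-coding genes ranked first by near bound among those at 20 CPM or more, and the 20 with the largest CPM difference. The rule adds the marker and sort genes, the 10 most abundant genes within 2-fold, and from each list up to 6 called members per direction and up to 3 nearest to a ratio of 1. Lists of up to 20 genes were open in full. In the antigen receptor and coreceptor list all called members are named. Genes named outside that rule were chosen after their values were seen: Apoa1, Ccr9, Cd200r4, Cd79b, Cd96, Cxcr6, Fos, Foxo1, Fyn, Hspa1a, Hsph1, Id2, Il1a, Irf8, Itgb3, Itgb7, Jun, Klf2, Klrd1, Lat, Lef1, Ltb, Mki67, Myc, Prf1, Rela, Runx3, Srgn, Syk, Tcf4, Tnfrsf9, Trac, Vav1 and the marker genes named as at 0. Promoters came from the RefSeq table of GRCm38.p6, matched by symbol. Alternatives changed the scaling, the CPM minimum, the fold with its near bound, or the genes kept with new TMM factors.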

Additional observations from a re-analysis of the deposited data

Results flagged for a closer look

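A part of each library lies outside the gene counts compared here. Non-unique alignments took 26.9% of the reads listed for iCD8a and 34.5% for ILC1. Reads in no annotated gene came to 9.31% and 11%. Of the gene counts, 0.338% in iCD8a and 0.484% in ILC1 fell on IDs outside the annotation used for symbols. All of these shares were higher in ILC1, there is 1 library a side, and their part in the differences between the libraries was not tested.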

How the results depend on the processing

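The number of called genes depended on the thresholds more than on the scaling. In iCD8a and ILC1 it was 356 and 494 in the report, 575 and 751 at a minimum of 1 CPM, 186 and 299 at 20 CPM, and 642 and 868 with no minimum. It was 959 and 1092 at a fold of 2 with a near bound of 1.5, and 202 and 305 at a fold of 8 with a near bound of 4. The other alternatives gave between 337 and 398 genes for iCD8a and between 461 and 527 for ILC1. CPM without TMM factors moved the median ratio of all genes by 0.14 on the log2 scale. Among named genes it ended the calls of Bhlhe40, Cdt1, Esr1, Gbp3, Ramp3 and Treml2 and added those of H2-Aa, H2-DMb2 and Ifi30. DESeq2 size factors ended that of Dll4, and upper-quartile factors those of Dhcr7, Dll4, Scarb1 and Slco4a1 while adding that of Tgfb1. Thinning to the smallest total added that of H2-Aa. The share of genes within 2-fold was 79.7%, 78.5% without TMM factors and 82.6% at a minimum of 20 CPM. The sign of some list medians turned: cytotoxic granule genes went from 0.07 to −0.11 at a minimum of 1 CPM, and phosphatases from −0.01 to 0.12 without TMM factors. List medians near 0 turned too: RGS proteins from −0.04 to 0.10 without TMM factors and 0.04 at 1 CPM, glycolysis from 0.003 to −0.02 (DESeq2) and −0.06 (upper quartile), and housekeeping from 0.04 to −0.02 (upper quartile). No paired analysis was possible because each group has 1 library. Depth limits low genes: 3 counts correspond to 0.127 CPM in iCD8a and 0.136 in ILC1.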

Other observations

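Transport and channel genes gave calls on both sides, the solute carriers at about the share of all measured genes (3.52% and 4.89%). Of 172 measured solute carriers, 7 were called higher in iCD8a and 9 in ILC1, and 132 lay within 2-fold. Slc6a20a, a proline transporter, was at 0.296 CPM in iCD8a cells, 23.1 in ILC1 and 4.68 in CD11b+, and Slc2a6, of the glucose transporter family, at 13, 213 and 225. Potassium channel genes were called 5 times in ILC1 and 2 times in iCD8a among 12 measured. Kcnc1, a voltage-gated channel known from neurons, was at 0.296 against 10.8 CPM, and Kcnh2, the channel of cardiac repolarisation, at 7.7 against 1.73. Kcna3, the Kv1.3 channel of lymphocytes, was at 32 and 26.4.

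Orphan and adhesion G protein-coupled receptors were called 6 times on each side among 33 measured. Adgrl2, a latrophilin, was at 61 against 2.68 CPM (22.8-fold, 17.5 to 30.1) and Adgrg1, which encodes GPR56, at 39 against 1.95 (19.9-fold, 14.7 to 27.8), both higher in iCD8a. Gpr174, a lysophosphatidylserine receptor, was at 3.51 against 58.7 (16.7-fold, 13.4 to 21.1), higher in ILC1. Of 61 Rab genes, 53 lay within 2-fold, and of 226 Zfp genes 199. Zfp683, which encodes the residency factor Hobit, was on 3 counts in iCD8a and at 41.9 CPM in ILC1 (330.4-fold, 113 to 1605). In the SLAM family, Slamf9 was called in iCD8a (11 against 0.227 CPM) and Cd84 in ILC1 (19.3 against 111).

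Transcripts of both sex chromosomes' marker genes were counted in each library. These genes were chosen after their values were seen. Xist, the noncoding RNA of the inactive X chromosome, was at 447, 408 and 369.6 CPM in iCD8a, ILC1 and CD11b+. Ddx3y, a Y-linked helicase gene, was at 87.9, 235 and 109.8 CPM, and Kdm5d, also Y-linked, at 21.5, 25.7 and 11.5. The labels do not give the sex or the number of the mice behind a library.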
